A study of Mus musculus with 4 samples.

Results

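The smooth muscle contractile genes described here are 9 genes chosen by name (Acta2, Actg2, Tagln, Myh11, Cnn1, Des, Myl9, Tpm1 and Tpm2), and the array held 17 probe sets with 1 gene symbol for them, out of 22626 probe sets and 12393 genes. They were measured in tumour-associated macrophages sorted by flow cytometry from gastrointestinal stromal tumours (GIST) of GIST mice, the labels' name for this mouse model, whose allele and age the labels do not give. One group received vehicle and the other imatinib, a tyrosine kinase inhibitor, at 600 mg/L in the drinking water. By the design text the treatment lasted 2 weeks, each group had 8 mice, sorted cells were pooled by group and each pool was run on 2 Affymetrix expression arrays. The titles call the 2 arrays of a group biological replicates. Nothing in the labels ties an array to separate mice, so the p-values reflect how far arrays of a pool differ, possibly for technical reasons, and not how mice differ.

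Smooth muscle contracts when myosin made of the heavy chain Myh11 and light chains such as Myl9 pulls on filaments of the smooth muscle actins Acta2 and Actg2. Tropomyosins (Tpm1, Tpm2), calponin (Cnn1) and transgelin (Tagln) bind these filaments, and desmin (Des) is the intermediate filament of muscle cells. The gut wall in which GIST grows is largely smooth muscle, and Acta2 and Tagln are also made by myofibroblasts and pericytes. Many of these genes are switched on by serum response factor with myocardin family partners, at promoter sequences called CArG boxes.

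RefSeq promoter windows of assembly GRCm38.p6, from 250 bases before to 50 bases after a start site, were found for 6 of the 9 genes: Acta2, Cnn1, Des, Myl9, Tpm1 and Tpm2. Actg2, Tagln and Myh11 had no entry. The windows were searched in the direction of the gene for the CArG box, a motif of 10 bases. CArG-like elements, in which at most 1 base of the inner A/T run is G or C, were also sought. The pattern is symmetric, so a match on 1 strand is also a match on the other. Acta2 and Myl9 each held 2 elements, and the other 4 windows held none. Of all 32851 windows, 9.98% held at least 1 such element, 0.822% held 2 or more and 1.63% held a CArG box with no G or C in its core. The 30 bases around each element are shown because both genes carry a pair, while Acta2 was lower with imatinib and Myl9 was not called. Capitals mark the element, and each sequence is written 5′ to 3′ in the direction of the gene.
Acta2, minus strand, chr19:34255438-34255467: gtgctgaggtCCCTATATGGttgtgttaga
Acta2, minus strand, chr19:34255388-34255417: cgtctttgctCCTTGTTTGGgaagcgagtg
Myl9, plus strand, chr2:156775293-156775322: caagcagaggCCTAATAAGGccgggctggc
Myl9, plus strand, chr2:156775355-156775384: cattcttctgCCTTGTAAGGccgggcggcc
The Acta2 elements start 84 and 34 bases before the start site, and both have 1 G or C in the core. Those of Myl9 start 161 and 99 bases before it, and the first is a full CArG box. A match is a run of letters and not evidence of binding.

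The 2 brightest probe sets of the list, those of Acta2 and Tpm2, were called lower with imatinib, and none was called higher. Of the 17 probe sets, 2 (11.8%) were lower at a Benjamini-Hochberg adjusted p below 0.05 in limma, where 2.81% of all 22626 probe sets were lower and 1.92% higher (4.72% called in all). At an unadjusted p below 0.05, 5 of the 17 were lower (29.4%; the brightest probe sets of Acta2, Tpm2, Tpm1, Actg2 and Des), where 10.3% of all probe sets were, and none was higher. The log2 difference, imatinib minus vehicle on the log2(signal + 32) scale, was negative for 15 of 17 (88.2%), against 56.2% of all probe sets. Its median was -0.30 over the 17 and -0.04 over all probe sets. Both imatinib arrays lay below both vehicle arrays for 9 of the 17 (52.9%), against 27.7% of all probe sets, and above both for none, against 20.3%. On 2 arrays against 2 an exact permutation test cannot go below p = 0.33, so the tests rest on the spread that limma pools over probe sets.

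**Figure D1:**
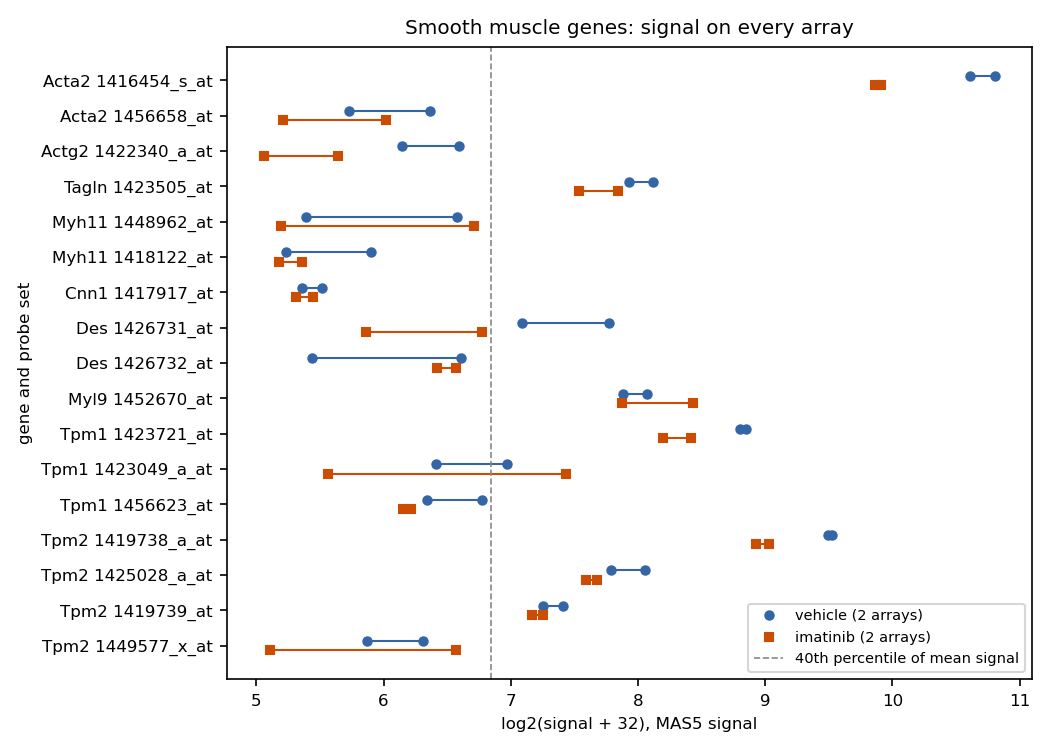
MAS5 signal of the 17 smooth muscle probe sets on each array, as log2(signal + 32); circles are the 2 vehicle arrays, squares the 2 imatinib arrays and the lines join the arrays of a group. The Acta2 and Tpm2 probe sets at the right have narrow, separate pairs, while most probe sets left of the dashed 40th percentile of mean signal have wide, overlapping ones.

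The arrays of the vehicle and imatinib groups also differed in other measures. Median signals were 151.5 and 140.4 in the vehicle group and 121.5 and 132.9 in the imatinib group. The 3' to 5' signal ratio of the Gapdh control, a measure of RNA integrity, was 2.91 and 2.76 against 2.34 and 2.09. That of the actin control was 3.99 and 3.58 against 3.06 and 2.71. All 16 macrophage marker genes on the array lay above the 40th percentile of mean signal (a signal of 82.9). Their summed signal was 161350 to 162203 with vehicle, against 193836 to 202692 with imatinib. The part of these differences in the results below was not tested.

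Of the actins, the main Acta2 probe set, 1416454_s_at, read 1533 and 1763 with vehicle, against 899.3 and 929.7 with imatinib. Acta2 encodes alpha smooth muscle actin, and both imatinib arrays were low, far outside the range of the vehicle pair. The group means were 1648 ± 162.6 and 914.5 ± 21.5 (SD, n = 2). The log2 difference was -0.82 ± 0.09 (SE), or 1.77-fold lower, with a limma adjusted p of 0.0078. The suffix _s_at marks a probe set that may read transcripts of several related genes, so a contribution of other actins cannot be told apart from Acta2 here. The second Acta2 probe set, 1456658_at, was dim, at 50.4 and 21.0 with vehicle, against 4.99 and 32.9 with imatinib. Its groups overlapped, and its log2 difference of -0.43 had a 95% interval from -1.30 to 0.44.

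Leaving out 1 array leaves a lone array in a group, which is then assumed to vary like the other group. The Acta2 log2 difference stayed negative each time, but the adjusted p was 0.070 without vehicle array 2, 0.10 without imatinib array 1 and 0.078 without imatinib array 2, with log2 differences of -0.73, -0.80 and -0.85. Without vehicle array 1 it was still called (-0.92, adjusted p = 0.048). It was not called without the mean-variance trend (adjusted p = 0.098).

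Actg2, the gamma smooth muscle actin typical of gut muscle, was dim on every array, at 64.5 and 38.9 with vehicle, against 17.8 and 1.34 with imatinib. The imatinib arrays were the lower pair. The log2 difference was -1.02 ± 0.30 (SE, limma adjusted p = 0.13), and its mean signal lay at the 21.8th percentile of all probe sets. Of the striated muscle actins, Acta1 read 111.0 and 122.9 with vehicle, against 52.3 and 91.6 with imatinib, a log2 difference of -0.54 (adjusted p = 0.41), and the dimmer Actc1 had a log2 difference of -0.50 (adjusted p = 0.49). The cytoplasmic actins, which all cells make, were bright. Actb had a log2 difference of -0.01 ± 0.08 (SE) and Actg1 of -0.14 ± 0.08, and neither passed the test (limma adjusted p = 0.97 and 0.41). On a scale with equal array medians every log2 difference is 0.16 higher than given here, which turns Actb and Actg1 positive, and the difference between Acta2 and these actins was not tested.

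Among the tropomyosins, which wind along actin filaments and gate the access of myosin, 1 probe set of Tpm2 was called. The probe set 1419738_a_at read 687.0 and 705.0 with vehicle, against 489.7 and 455.9 with imatinib. Its vehicle pair and its imatinib pair were each tight and well separated. The log2 difference was -0.53 ± 0.10 (SE), 1.44-fold lower, with a limma adjusted p of 0.043. This call ended under small changes of setting: the adjusted p was 0.054 with a larger pseudocount, 0.059 after quantile normalization, 0.17 with equal array medians, 0.17 without the mean-variance trend, 0.052 with a robust prior, 0.061 with the replicate number as a block, and 0.17 to 0.20 when any 1 of the 4 arrays was left out.

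The other 3 Tpm2 probe sets were dimmer and none was called. The probe set 1425028_a_at read 189.3 and 233.6 with vehicle, against 161.1 and 172.4 with imatinib, a log2 difference of -0.29 (95% interval -0.77 to 0.20). The probe set 1419739_at read 137.7 and 120.8 against 111.9 and 120.3, a log2 difference of -0.12 that was 0.04 with equal array medians. In both the imatinib arrays lay just below the vehicle arrays. The probe set 1449577_x_at read 47.3 and 26.4 against 2.55 and 63.1, with overlapping groups.

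The brightest Tpm1 probe set, 1423721_at, read 428.2 and 414.6 with vehicle, against 261.8 and 309.4 with imatinib. Both imatinib arrays were lower, by -0.52 ± 0.14 (SE) on the log2 scale, and the adjusted p over all probe sets was 0.11. It passed with only probe sets at or above the 40th percentile of mean signal (limma adjusted p = 0.045) or the 60th (0.040). These fits test fewer features and estimate the mean-variance trend anew. The probe set 1456623_at read 49.0 and 77.6 against 42.4 and 39.2, a log2 difference of -0.37, and 1423049_a_at read 53.3 and 93.4 against 15.2 and 141.0, where the imatinib arrays enclosed the vehicle pair. Tpm3 and Tpm4, counted here among the non-muscle actin and myosin genes, had log2 differences of 0.04 ± 0.07 (SE) and -0.15 ± 0.09. The Tpm3 difference was negative on a scale with equal macrophage markers, and neither gene was called.

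**Figure D2:**
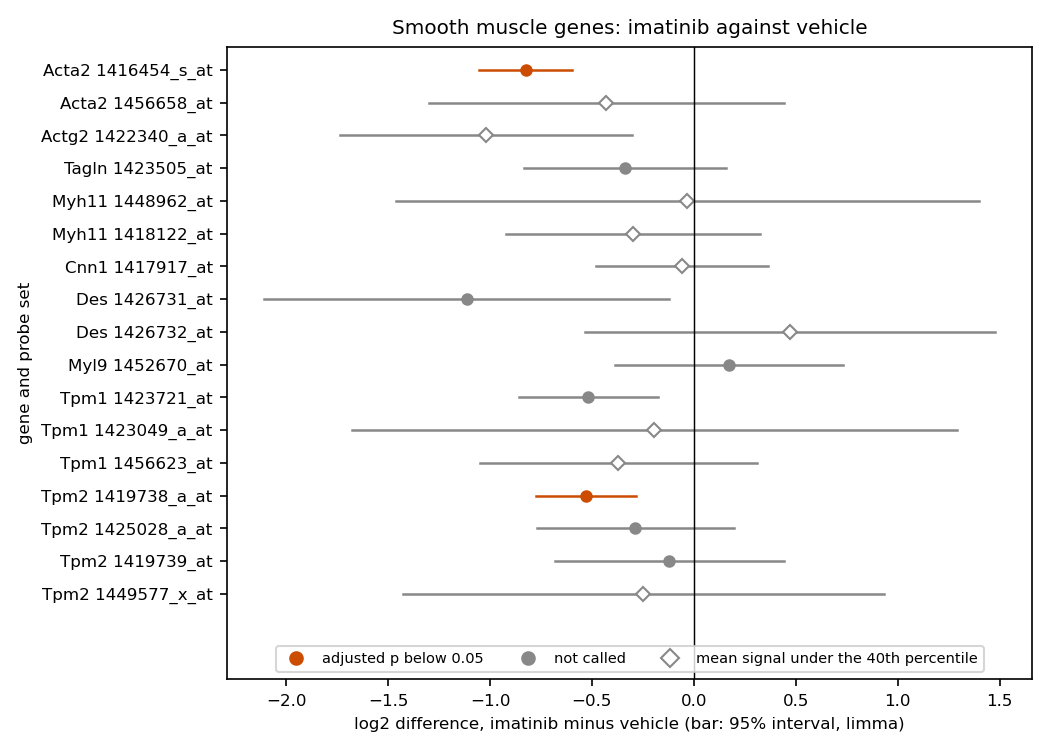
Log2 difference of signal, imatinib minus vehicle, for each smooth muscle probe set, with the 95% interval from limma as a bar; orange marks an adjusted p below 0.05 over all 22626 probe sets and open diamonds a mean signal under the 40th percentile. The 2 called probe sets, Acta2 at -0.82 and Tpm2 at -0.53, have the narrow intervals, and most others have intervals that cross 0.

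Neither of the 2 myosin genes passed the test. Myl9, the regulatory light chain whose phosphorylation starts contraction, read 203.9 and 237.3 with vehicle, against 202.3 and 312.6 with imatinib. The groups overlapped, with imatinib array 2 the highest and imatinib array 1 the lowest of the 4. The log2 difference was 0.17 ± 0.23 (SE), with a 95% interval from -0.39 to 0.73, and the difference from Acta2 was not tested. It was -0.31 on a scale with equal macrophage markers and -0.11 without imatinib array 2.

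Myh11, the myosin heavy chain that marks mature smooth muscle, was near the floor of the arrays in both its probe sets. The probe set 1448962_at read 10.1 and 63.3 with vehicle, against 72.8 and 4.59 with imatinib, and 1418122_at read 5.58 and 27.9 against 4.26 and 8.95. Arrays of 1 group differed from each other by more than the groups did in 1448962_at, whose 95% interval ran from -1.46 to 1.40. The interval of 1418122_at ran from -0.92 to 0.32, and neither probe set was called.

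Among the genes that stabilise the filaments, Tagln, an actin-binding protein of smooth muscle and myofibroblasts, read 211.8 and 246.0 with vehicle, against 153.2 and 197.4 with imatinib. The imatinib pair lay below the vehicle pair with a narrow gap. The log2 difference was -0.34 ± 0.20 (SE), with a limma adjusted p of 0.46. Cnn1, the calponin of differentiated smooth muscle, read 13.8 and 8.95 against 11.5 and 7.66, at the 8.27th percentile of mean signal and with overlapping groups.

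Desmin gave opposite signs in its 2 probe sets. Probe set 1426731_at read 186.9 and 104.1 with vehicle, against 77.3 and 26.1 with imatinib, a log2 difference of -1.12 ± 0.41 (SE, limma adjusted p = 0.22). This was the largest negative value in the list, but the arrays of each group were far apart, and both imatinib signals lay under the 40th percentile. Probe set 1426732_at read 65.6 and 11.4 against 53.8 and 63.2, a log2 difference of 0.47 with overlapping groups (95% interval -0.53 to 1.48). Both Des probe sets are annotated to the same transcript accession, and no direction can be given for the gene.

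In all, 8 of the 17 probe sets, from 6 genes, reached the 40th percentile of mean signal and 9 did not. The median SE of a log2 difference over all probe sets was 0.25 at a mean signal under 50, where 7 of the 17 lie, 0.30 from there to the 40th percentile, 0.26 from there to 200, 0.17 from 200 to 500, and 0.10 at 500 and above, where the 2 called ones lie. The share of all probe sets called was 0.655%, 1.14%, 2.46%, 5.80% and 12.0% in these classes. Myh11, Cnn1 and Actg2, which define mature smooth muscle, had their brightest probe sets at percentiles 25.2, 8.27 and 21.8 of mean signal. Signals depend on the probes as well as on the transcript, so these ranks do not order the genes by abundance.

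**Figure D3:**
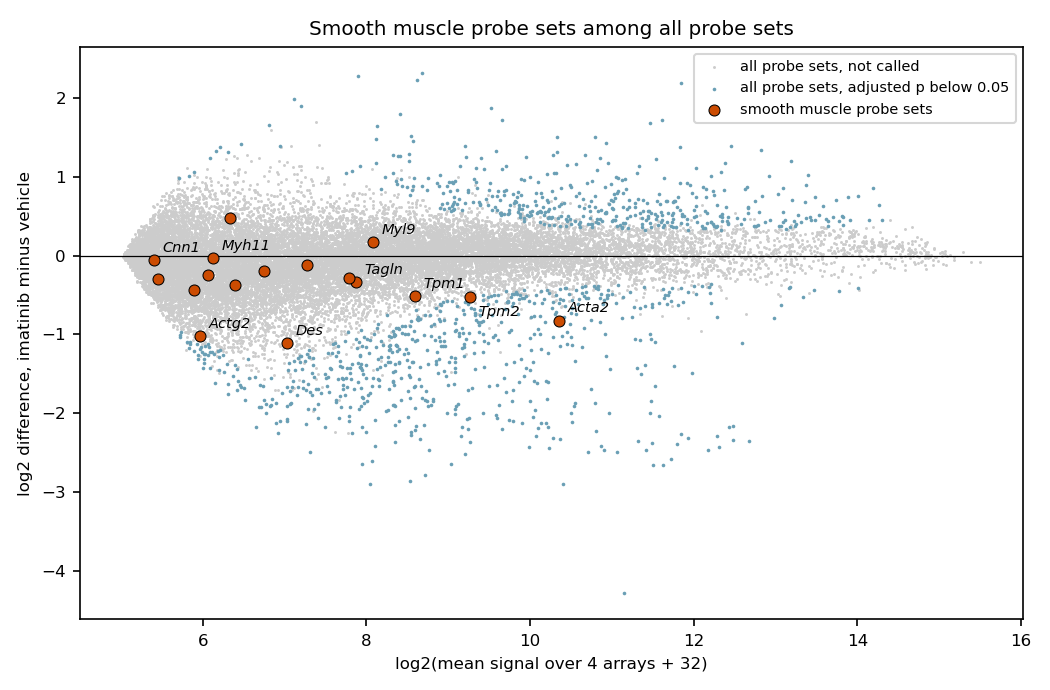
Log2 difference, imatinib minus vehicle, against log2(mean signal over the 4 arrays + 32) for all 22626 probe sets (grey, blue where the adjusted p is below 0.05) and the 17 smooth muscle probe sets (orange; the brightest of each gene is named). Acta2 and Tpm2 lie at the bright end among called probe sets, while Actg2 and Des have larger differences at signals where few probe sets are called.

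Other genes of the contractile apparatus were lower in part. Of 28 genes on the array, each taken by its brightest probe set, 3 were lower and none higher in limma, against 3.68% of all genes lower and 2.25% higher (5.93% called in all). At an unadjusted p below 0.05, 5 were lower (17.9%, against 11.9% of all genes) and none higher; besides the 3 described next these were Vcl (-0.62, adjusted p = 0.050, which is just above the threshold) and the dim Chrm3 (-0.80). The list's median log2 difference was -0.21, against -0.52 over the 9 smooth muscle genes and -0.05 over all genes. Dstn, the actin-depolymerising factor destrin, read 4145 and 4521 with vehicle, against 2746 and 2824 with imatinib, a log2 difference of -0.63 (adjusted p = 0.0084). Cald1, the actin- and myosin-binding caldesmon, had a log2 difference of -0.60 (adjusted p = 0.012), and Actn1, the cross-linker alpha-actinin 1, of -0.49 (adjusted p = 0.033). These 3 proteins are also part of the cytoskeleton of non-muscle cells. The others were not called. Among these, Mylk, the kinase that phosphorylates myosin light chains, read 998.7 and 1267 against 1019 and 806.0, with overlapping groups and a log2 difference of -0.30. Over the 28 genes, 19 differences were negative and 9 positive. Pdlim7 (-0.40), Pln (-0.19), and Smtn (-0.48) and Dmd (-0.57), which lay under the 40th percentile of mean signal, had negative ones. The largest positive ones were those of the dim Itga8 (0.82), Itga5 (0.66) and Ppp1r14a (0.44), and the bright Flna was at 0.11. Lmod1 (0.17), Synpo2 (0.02) and Kcnmb1 (-0.28) had no signal above 37.3.

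Of 17 genes for transcription factors that act on smooth muscle genes and their partners, 1 was lower and none higher. For this list and the others in this paragraph, the shares over all genes were 3.68% lower and 2.25% higher in limma. At an unadjusted p below 0.05, 4 of the 17 were lower (23.5%, against 11.9% of all genes), Csrp2, Gata6 (-0.97), Foxf1 (-0.73) and Tgfb1i1 (-0.72). By the same count Mef2c was higher (0.28). The called one was Csrp2, a LIM protein of smooth muscle, at 672.6 and 571.7 with vehicle, against 260.9 and 232.4 with imatinib, a log2 difference of -1.23 ± 0.14 (SE, limma adjusted p = 0.0077). Srf, which binds the CArG box, read 272.4 and 261.2 against 251.4 and 289.7, a log2 difference of 0.02 with overlapping groups. Its cofactor Myocd read 36.2 or less on all arrays. The list's median was 0.02. Of 11 genes of RhoA signalling and myosin phosphatase, which set the contractile force, Rhoc was lower (-0.77, adjusted p = 0.048) and Rhob was higher (0.70, adjusted p = 0.016). Of 12 genes of the non-muscle actin and myosin machinery, Cnn3 was lower (-0.46, adjusted p = 0.048), with a list median of -0.06. Of 22 genes of striated muscle none was called in limma. At an unadjusted p below 0.05 there were 2, Tnnt1 at 0.92 and the dim Myh1 at 0.47. Of these 22 genes 4 reached the 40th percentile of mean signal.

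Markers of other cells of the tumour moved on the same arrays. Of 16 epithelial genes 15 were lower in limma, where 3.68% of all genes were lower and 2.25% higher. The exception was Cldn4, at -1.83 with an adjusted p of 0.10. The list's median log2 difference was -2.18, and its summed signal was 41345 to 41728 with vehicle, against 8278 to 8437 with imatinib. Of 19 fibroblast genes 5 were lower and 1 higher, with a median of -0.61 and a summed signal of 9387 to 9985 against 5730 to 6127. The lower ones were Loxl1 (-1.51), Pcolce (-1.35), Sparc (-1.04), Col3a1 (-1.02) and Col1a2 (-0.93), which make or modify collagen matrix, and the higher one was Serpinf1 (0.82). At an unadjusted p below 0.05 in limma there were 11 of the 19 fibroblast genes. Of these, 9 were lower (47.4% of the list, against 11.9% of all genes). The change of Acta2, at -0.82, lay between the medians of the fibroblast and epithelial lists.

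Of 9 pericyte genes 2 were lower and none higher in limma, where 3.68% of all genes were lower and 2.25% higher. The lower ones were Higd1b (-1.10, adjusted p = 0.049) and Pdgfrb (-0.97, adjusted p = 0.049). Higd1b was dim, at 35.9 and 53.6 with vehicle, against 5.71 and 1.40 with imatinib. The list's median was -0.40, and its summed signal was 2242 to 2394 with vehicle, against 1651 to 1689 with imatinib. At an unadjusted p below 0.05 in limma there were 5 of the 9, all lower (55.6%, against 11.9% of all genes). The 9 smooth muscle genes, each by its brightest probe set, had the same share (5, or 55.6%). Rgs5, a pericyte marker, read 1439 and 1476 against 1174 and 1082, a log2 difference of -0.36 that did not pass (adjusted p = 0.069). Of 9 genes of GIST cells and interstitial cells of Cajal, Kit was lower (-0.64, adjusted p = 0.026). The list's median was -0.25, with a summed signal of 2088 to 2231 against 1465 to 1506. At an unadjusted p below 0.05 in limma there were 4 of these 9, all lower (44.4%). Of 12 endothelial genes, Plvap was lower (-0.64, adjusted p = 0.025), with a median of -0.11. It was the only 1 of them with an unadjusted p below 0.05 (8.33%). None of 7 mesothelial and 8 enteric glial and nerve genes was called in limma, and 0 in each list had an unadjusted p below 0.05. In each of these lists 1 gene reached the 40th percentile of mean signal, under which few probe sets are called. The brightest genes were Dpp4 (0.28) and Gpm6a (-0.23) in the first list and Sox10 (-0.23) and Ret (-0.34) in the second.

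Of 16 macrophage genes 7 were higher and none lower in limma, where 2.25% of all genes were higher and 3.68% lower. The called ones were led by Mertk (1.16), Lyz2 (0.86), Fcgr3 (0.69) and Cd14 (0.62), and the list's median was 0.41. On a scale that sets the mean of these 16 markers equal on all arrays, every log2 difference is lower by 0.48. On it 8 of the 17 smooth muscle probe sets and 9934 of all 22626 were lower. In pooled sorted cells, fewer cells of a type and less of its RNA per cell cannot be told apart. The part of any of these cell types in the lower Acta2 and Tpm2 signals was not tested.

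**Figure D4:**
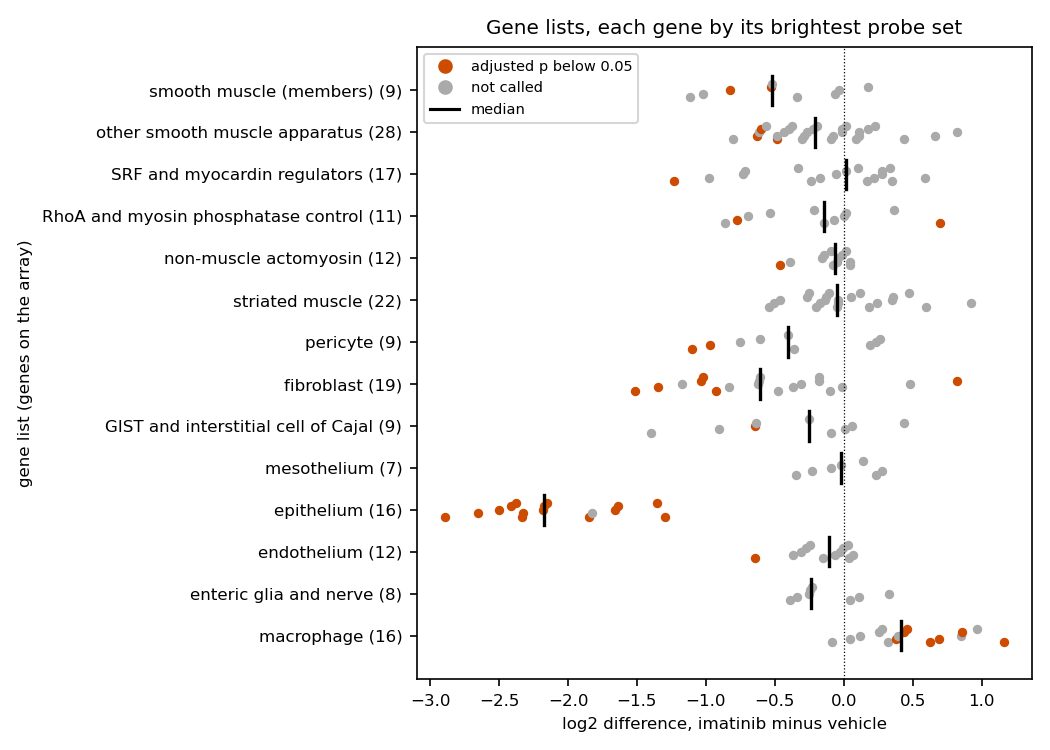
Log2 difference, imatinib minus vehicle, of each gene by its brightest probe set, for the 9 smooth muscle genes and 13 other gene lists; orange marks an adjusted p below 0.05 (limma) and the black bar the median of a list. The smooth muscle median is -0.52, between those of the pericyte (-0.40) and fibroblast (-0.61) lists, and epithelial genes lie far to the left at -2.18.

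The genes whose pattern over the 4 arrays was most like that of Acta2 were sought among 8150 genes at or above the 40th percentile of mean signal, by the Euclidean distance of log2 values centred on each gene's mean. The 5 nearest were Amn, S100a10, Hacd1, Id1 and Cdc20, at distances of 0.048, 0.052, 0.073, 0.073 and 0.097 on the log2 scale. Amn and Hacd1 were not called (limma adjusted p = 0.11 and 0.10), and the others were called lower. S100a10, a calcium-binding protein family member that partners annexin A2, read 2053 and 2267 with vehicle, against 1174 and 1253 with imatinib. Id1, an inhibitor of basic helix-loop-helix factors, read 396.0 and 462.1 against 210.2 and 219.6, and Cdc20, a mitotic activator of the anaphase-promoting complex, read 770.2 and 862.5 against 451.7 and 425.8. With 4 arrays such likeness is mostly a shared difference between the groups.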

How the data were processed

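The values the authors deposited are linear signal intensities, 1 column per array. The submitters' processing notes name MAS5 and Affymetrix Expression Console; their versions and settings and the genome build were not given in the sources used. Each array's mean after trimming 2% at each end was 500.3. Probe sets were named through the platform annotation: of 22626 without the 64 controls, 20380 had 1 symbol, 691 several and 1555 none. Signals were transformed as log2(signal + 32), so fold changes of dim genes are understated, and all 22626 probe sets were compared without a filter, since dim members were to be included. The test was limma 3.58.1 (lmFit, eBayes with trend, two-sided, prior 4.20 and residual 2 degrees of freedom) in R 4.3.3 with Benjamini-Hochberg adjustment over all probe sets and a threshold of 0.05. It was also run on simulated data whose spread depended on signal level alone, which cannot show how well it works on these arrays. Errors are SD of signals and SE of log2 differences. Of each companion list the text names up to 4 called genes by size of change, or the 2 brightest; other genes were chosen after their values were seen. The members and lists were chosen with earlier results of these data known. Alternatives were 2 pseudocounts, 2 filters, 3 scalings, 2 variance priors, 2 probe set choices, a replicate block and each array left out. Figures used Python 3.11.15 and matplotlib 3.10.9.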

Additional observations from a re-analysis of the deposited data

How the results depend on the processing

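Of the 17 smooth muscle probe sets, 2 were lower as reported. The count was 3, with Tpm1 added, under the 40th and 60th percentile filters and with 1 probe set a gene. It was 1 with a larger pseudocount, quantile normalization, equal array medians, a robust prior or the replicate number as a block, and 0 without the mean-variance trend (limma; 5 at an unadjusted p below 0.05) or without probe sets ending in _s_at, _x_at or _a_at (2 at an unadjusted p below 0.05), which leaves out both called ones. It was 8 on the scale with equal macrophage markers and 0 to 1 with an array left out (4 to 5 at an unadjusted p below 0.05). None of the 17 was called higher under any of these. Over all probe sets, 1069 were called (434 higher and 635 lower). The count was 1844 with the 40th and 1604 with the 60th percentile filter (860 higher and 744 lower), 262 without the trend (32 and 230), 634 without the suffixed probe sets, 10062 with equal macrophage markers (9934 of them lower) and 150 to 242 with an array left out. With equal array medians 686 were higher and 479 lower, and the median over all probe sets moved from -0.04 to 0.12. Of the genes in the other lists 39 were called, against 94 with equal macrophage markers, 14 without the trend, 23 without the suffixed probe sets and 14 to 20 with an array left out. Filters test fewer features and also estimate the mean-variance trend anew on the probe sets kept. The cause of these shifts was not tested.

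Differences that changed sign belonged to probe sets that were not called. Myh11 1448962_at was 0.0057 with a larger pseudocount, 0.10 after quantile normalization and 0.13 with equal array medians. Cnn1 was 0.033 and 0.10, and Tpm2 1419739_at 0.045 and 0.039, under the last 2. With equal macrophage markers Des 1426732_at was -0.011 and Myl9 -0.31. With an array left out, Myh11 1448962_at ranged from -0.79 to 0.73, Myh11 1418122_at from -0.64 to 0.036, Cnn1 from -0.14 to 0.021, Des 1426732_at from -0.11 to 1.06, Myl9 from -0.11 to 0.45, Tpm1 1423049_a_at from -1.13 to 0.74 and Tpm2 1449577_x_at from -0.98 to 0.48.

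The replicate numbers were not taken to pair the arrays, since deviations of same-numbered arrays correlated at -0.06. With the replicate number as a block the Acta2 call stayed (limma adjusted p = 0.0029) and that of Tpm2 did not (0.061). Signals near background limit Myh11, Cnn1, Actg2 and the second Des and Acta2 probe sets.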
